A study of Homo sapiens with 8 samples.

Results

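The 10 genes described here write, copy, read and remove DNA methylation, and all of their RNA levels were measured in D283-OMO cells with and without inhibition of MYC. They were found among the 60668 genes of the count files by matching Ensembl identifiers to GENCODE gene symbols, and 10 of 10 were among the 15222 genes tested. D283-OMO is the human medulloblastoma cell line D283 MED carrying a lentiviral, doxycycline (DOX)-inducible transgene for OMOMYC, a dominant-negative MYC protein. The line carries the transgene in both groups, and it was sequenced as 4 untreated libraries (OMO) and 4 libraries of cells given DOX for 72 h (OMO+DOX), from polyA+ RNA. No DOX-treated cells without the transgene were sequenced in the libraries analysed here, so DOX and OMOMYC cannot be told apart.

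Methyl groups on the cytosines of CpG dinucleotides are placed on new sites by DNMT3A and DNMT3B and copied after replication by DNMT1. UHRF1 recognises the hemimethylated DNA that replication leaves and recruits DNMT1, while its paralog UHRF2 shares its domains but does not replace it in maintenance. The TET dioxygenases oxidise methylcytosine, TDG cuts out the more oxidised bases so that base excision repair can restore cytosine, and MBD2 binds methylated CpG and brings the NuRD repressor complex. Transcription of DNMT1 and UHRF1 is known to rise with entry into S phase.

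The promoters are shown first for DNMT1 and UHRF1, which fell most with DOX, and for TET2, which rose most. Sequences are RefSeq windows on GRCh38.p14 from 250 bases before the annotated start to 30 after it, written 5′ to 3′ on the strand of the gene. Capitals mark the E2F letters TTTCGCGC on either strand in DNMT1 (chr19:10194924-10195203, minus strand) and in the 2nd of 3 UHRF1 windows (chr19:4909894-4910173, plus strand). They mark the E-box CACGTG, the sequence that MYC with its partner MAX can bind, in TET2 (chr4:105145625-105145904, plus strand, 1st of 2 windows).
DNMT1: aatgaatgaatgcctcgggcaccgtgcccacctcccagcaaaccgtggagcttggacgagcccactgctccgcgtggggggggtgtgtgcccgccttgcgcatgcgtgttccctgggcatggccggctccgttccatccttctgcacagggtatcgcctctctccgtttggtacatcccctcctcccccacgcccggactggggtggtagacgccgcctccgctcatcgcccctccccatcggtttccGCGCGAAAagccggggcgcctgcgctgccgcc
UHRF1: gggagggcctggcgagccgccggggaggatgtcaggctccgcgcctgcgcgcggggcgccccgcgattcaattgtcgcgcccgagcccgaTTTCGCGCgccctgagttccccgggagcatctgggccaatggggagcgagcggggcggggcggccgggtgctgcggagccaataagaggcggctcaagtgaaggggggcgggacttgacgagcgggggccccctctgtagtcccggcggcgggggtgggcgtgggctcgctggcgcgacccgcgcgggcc
TET2: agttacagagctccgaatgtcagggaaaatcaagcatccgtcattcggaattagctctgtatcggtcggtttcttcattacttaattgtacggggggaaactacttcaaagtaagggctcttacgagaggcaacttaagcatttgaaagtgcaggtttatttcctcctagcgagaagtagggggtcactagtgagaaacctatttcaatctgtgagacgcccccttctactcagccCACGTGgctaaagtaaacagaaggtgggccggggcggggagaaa

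All 10 genes had at least 1 window of 300 bases in the RefSeq table, 21 windows in all. The E2F letters TTTCGCGC or TTTGGCGC, on either strand, were found in windows of 2 of the 10 genes, DNMT1 and UHRF1, and in windows of 1.4% of all 27305 genes. In DNMT1 the match starts 2 bases before the annotated start, and in UHRF1 it starts 160 bases before it. The E-box CACGTG was found in windows of DNMT3A, TET2, TET3 and TDG, 4 of the 10, and in 8.77% of all genes. In TET2 it starts 14 bases before the annotated start, in TDG 80 bases before it, and TET3 has matches at 67 and 27 bases before it. None of the 10 genes had both the E-box and these E2F letters. Other forms of the E2F site were not searched. Genes with several windows have more letters to match: 5 of the 21 windows held an E-box, although the 2 of DNMT3A overlap and hold the same one, against 7.26% of all 35116 windows, and 2 held the E2F letters, against 1.15%. The windows also differed in CpG content. The DNMT3B window had 3 CpGs, those of TET1 between 6 and 11, and one window each of DNMT3A and UHRF1 had 46. The median of all windows was 14. The windows of DNMT1, DNMT3B and UHRF1 lie inside the longer GENCODE genes, whose own starts were not searched. No window covers the GENCODE start of TET1 (68560656) or TET3 (73986404) either. Their 1st windows end before it, and their other windows lie inside the gene. The DNMT3A windows with the E-box (chr2:25252266-25252565 and 25252214-25252513) also lie inside the gene, far from its start at 25342590. For DNMT3B the only window (chr20:32779602-32779901) lies downstream of the gene's start at 32762385. Neither its CpGs nor its lack of matches describe that start. A match is a description of the letters and not a binding site.

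Libraries held between 46592947 and 54020506 counts in the untreated and between 38390696 and 49249167 in the DOX-treated group. The lowest count of any of the 10 genes in any library was 477, for DNMT3B, against a detection floor of 3 counts, which is at most 0.0781 CPM (counts scaled to a common library total) and covers counting error only. Levels below are CPM scaled by edgeR's TMM factors unless given per kilobase. Of 7 markers of Group 3 medulloblastoma, 7 passed the filter, and 6 of them fell with DOX (adjusted p under 0.05, edgeR). At that threshold 38.1% of all genes tested fell. The other marker, EYS, rose (log2FC 0.23, SE 0.09, adjusted p = 0.046, edgeR). The summed CPM of the 7 markers went from 2070 to 2320 in untreated to 747 to 776 in DOX-treated libraries. Marker genes of fibroblasts summed to 34.1 to 35.4 CPM in untreated and 57.9 to 72.1 CPM in DOX-treated libraries, those of haematopoietic cells to 0.504 to 0.701 and 2.5 to 3.22 CPM, and those of endothelium to 2.72 to 3.56 and 2.71 to 3.63 CPM. The members of these lists did not move together. PDGFRB carried the fibroblast sum, from 13.5 to 40.4 CPM on average, while COL1A1 did not pass the test (log2FC 0.09) and DCN, COL1A2 and LUM had at most 2 counts in any DOX-treated library, against 21 to 36, 7 to 15 and 1 to 9 untreated. LYZ, from 0.154 to 2.15 CPM, carried most of the haematopoietic sum, and PTPRC had at most 6 counts in any library. Among the endothelial markers VWF fell from 3.26 to 1.24 CPM, CDH5 had 0 counts in every untreated library and 61 to 106 with DOX, and PECAM1 had at most 2 counts. The astrocyte markers summed to at most 0.724 CPM. Their part in the results was not tested. The MYC targets CAD and NCL, which the study used to check the inhibition, had log2FCs of -0.48 (SE 0.05) and -0.44 (SE 0.04). MYC itself stood at 880 to 1050 CPM untreated and 1050 to 1180 CPM with DOX; OMOMYC derives from MYC, so reads of the transgene and the gene cannot be told apart. In bulk RNA, fewer cells of a kind and less RNA per cell cannot be told apart.

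Of the 10 genes, 7 fell with DOX and 2 rose at an adjusted p under 0.05, from the quasi-likelihood test of edgeR adjusted across every gene tested after Benjamini and Hochberg. Most genes of this contrast passed: 76.6% of all genes tested changed at that threshold, 38.1% lower and 38.5% higher. The fall was at least 2-fold for 2 of the 10, DNMT1 and UHRF1, against 9.81% of all genes. At stricter thresholds (FDR under 0.001 and log2FC beyond 2 in either direction), UHRF1 was the 1 gene differentially expressed, against 7.12% of all genes in either direction. The untreated and DOX-treated libraries did not overlap for 7 of the 10, close to the 71.7% of all genes. The median log2FC of the 10 was -0.22, beside 0.01 for all genes tested.

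**Figure D1:**
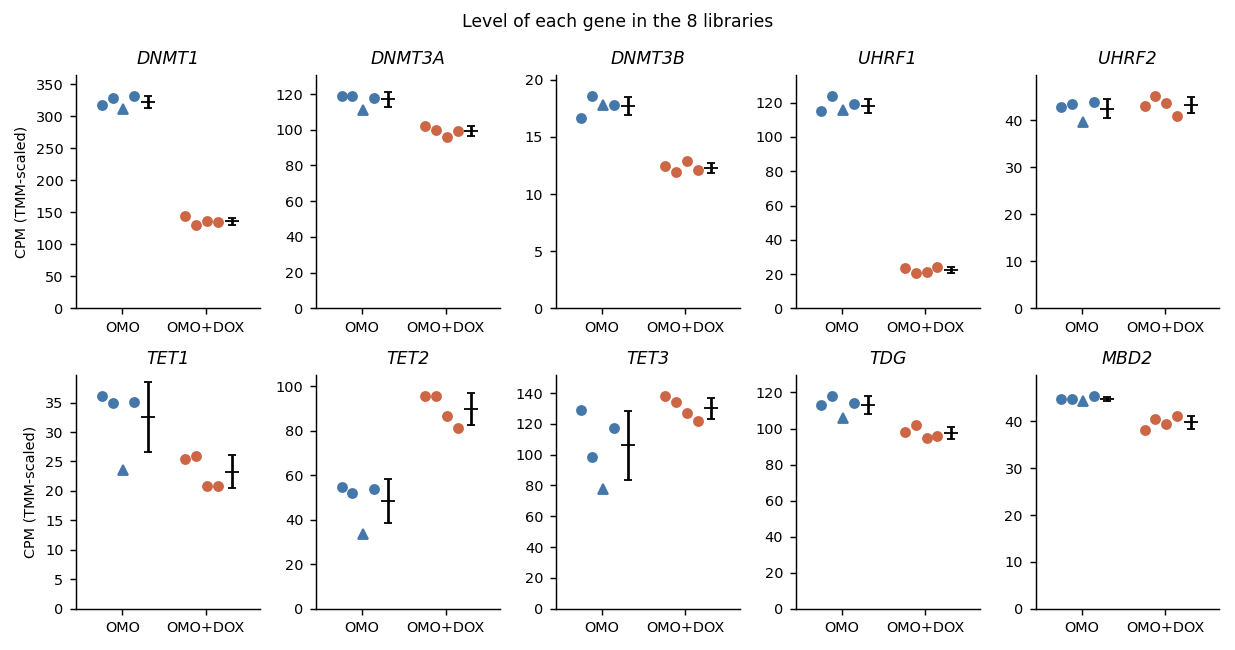
TMM-scaled CPM of the 10 genes (vertical axes, each from 0) in 4 untreated (OMO, blue) and 4 DOX-treated (OMO+DOX, orange) libraries, 1 symbol per library, with untreated replicate 3 as a triangle and mean ± SD as black marks. DNMT1 and UHRF1 fell in every DOX-treated library, TET2 rose in every one, and untreated replicate 3 lies below the other untreated libraries for TET1, TET2 and TET3.

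The maintenance methyltransferase DNMT1 (ENSG00000130816.16, chromosome 19, 10133345 to 10231286, minus strand, GENCODE 29 on GRCh38) was the most abundant of the 10 in untreated cells. It stood at 318, 328, 312 and 332 CPM in untreated replicates 1 to 4 and at 144, 130, 137 and 135 CPM with DOX. Every DOX-treated library was thus below every untreated one, by a wide gap. Means ± SD were 322 ± 9.05 and 136 ± 5.79 CPM (n = 4 each), with a log2FC of -1.24 (SE 0.05, adjusted p = 4.36e-10, edgeR) and a 2.36-fold lower level. In its annotation 83 exonic bases are shared with S1PR2 on the same strand, which had between 46 and 90 counts in the libraries.

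UHRF1 (ENSG00000276043.5, chromosome 19, 4903080 to 4962154, plus strand), the hemimethylation reader that recruits DNMT1, fell most of the 10. Untreated replicates had 115, 124, 116 and 119 CPM, and DOX-treated ones 23.5, 20.8, 21.4 and 24.3 CPM. The groups lay far apart, with a spread within each that was small beside the gap. The log2FC was -2.4 (SE 0.06, adjusted p = 1.46e-11, edgeR), a 5.26-fold lower level. Its expected counts were not whole numbers in any library, which means that RSEM shared some reads with other genes. UHRF1 fell further than its partner: per kilobase of annotated exon, the UHRF1 to DNMT1 ratio went from 0.699 ± 0.0169 to 0.314 ± 0.0199 (SD, n = 4 each). The ratio did not overlap between the groups (exact permutation test, two-sided: p = 0.029, the smallest possible with 4 against 4 libraries; 6 ratios were tested).

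UHRF2 (ENSG00000147854.17, chromosome 9, 6413151 to 6507054, plus strand), the paralog, did not pass the test. It had 42.9, 43.5, 39.6 and 43.8 CPM untreated and 43, 45.2, 43.6 and 41 CPM with DOX. The groups overlapped almost fully, and the log2FC was 0.02 with a 95% interval from -0.09 to 0.13 (adjusted p = 0.673, edgeR). With normalization to library size only, it was 0.15 (adjusted p = 0.024). The UHRF2 to UHRF1 ratio per kilobase rose from 0.186 ± 0.0072 to 1 ± 0.113 (SD, n = 4 each; exact permutation test, p = 0.029), a 5.36-fold change. Lengths set the level of this ratio but not its change: with the longest transcript as length, the means were 0.415 and 2.24.

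Of the de novo methyltransferases, DNMT3B (ENSG00000088305.18, chromosome 20, 32762385 to 32809356, plus strand) had 16.7, 18.6, 17.8 and 17.8 CPM untreated. With DOX it had 12.5, 11.9, 12.9 and 12.1 CPM, and the groups did not overlap. The log2FC was -0.52 (SE 0.05, adjusted p = 3.6e-06, edgeR). DNMT3A (ENSG00000119772.16, chromosome 2, 25227855 to 25342590, minus strand) had 119, 119, 111 and 118 CPM untreated and 102, 99.8, 96 and 99.4 CPM with DOX. This drop was small, although the groups did not overlap, at a log2FC of -0.23 (SE 0.04, adjusted p = 0.000475, edgeR). With normalization to library size only, which moves the median log2FC of all genes to 0.14, that of DNMT3A was -0.11 (adjusted p = 0.0642). The DNMT3A to DNMT3B ratio per kilobase rose from 2.54 ± 0.146 to 3.1 ± 0.168 (SD, n = 4 each; exact permutation test, p = 0.029). Isoforms, which differ in catalytic activity for DNMT3B, are summed in these counts.

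**Figure D2:**
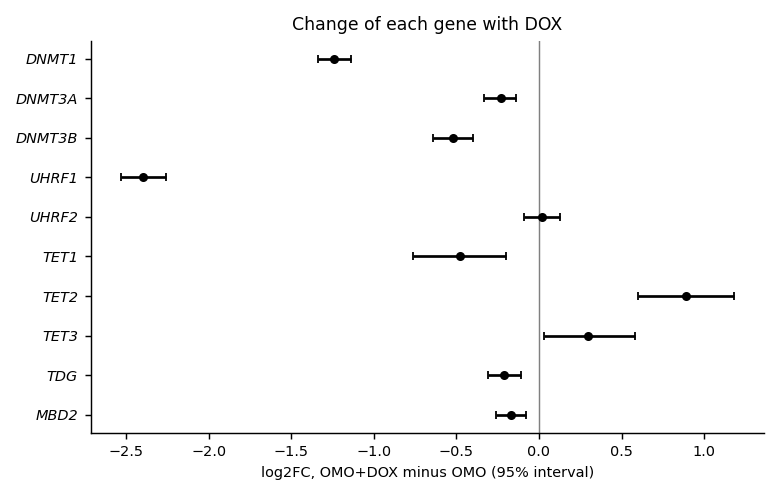
Fitted log2FC of the 10 genes, OMO+DOX minus OMO, on the horizontal axis, with 95% intervals from edgeR's quasi-likelihood fit of 4 against 4 libraries. UHRF1 lies at -2.4 and DNMT1 at -1.24, TET2 lies at 0.89, and the interval of UHRF2 spans 0.

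The 3 TET genes did not move together. TET2 (ENSG00000168769.13, chromosome 4, 105145875 to 105279816, plus strand) had 54.7, 52.1, 33.5 and 53.7 CPM untreated and 95.6, 95.6, 86.7 and 81.3 CPM with DOX. All DOX-treated libraries were above all untreated ones, and untreated replicate 3 was far below the others. The log2FC was 0.89 (SE 0.13, adjusted p = 6.72e-05, edgeR), a 1.85-fold higher level. TET1 (ENSG00000138336.9, chromosome 10, 68560656 to 68694482, plus strand) went the other way, from 36.1, 35, 23.6 and 35.1 CPM to 25.5, 25.9, 20.9 and 20.8 CPM. Here untreated replicate 3 lay among the DOX-treated libraries, and the log2FC was -0.48 (SE 0.13, adjusted p = 0.0051, edgeR). TET3 (ENSG00000187605.15, chromosome 2, 73986404 to 74108176, plus strand) was the most abundant of the 3 per kilobase. It had 129, 98.3, 77.8 and 117 CPM untreated and 138, 134, 127 and 122 CPM with DOX. The groups overlapped, since untreated replicate 1 was above 2 of the DOX-treated libraries, at a log2FC of 0.3 (SE 0.13, adjusted p = 0.0458, edgeR). This call was lost when untreated replicate 2 (adjusted p = 0.11) or any DOX-treated replicate (adjusted p from 0.051 to 0.105) was left out.

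Untreated replicate 3 stood at 66.6%, 62.7% and 67.8% of the mean of the other untreated libraries for TET1, TET2 and TET3. For the 7 other genes it stood between 91.3% and 101% of that mean. Across the 1512 genes tested with the longest exons, it lay a median of 0.24 below the other untreated libraries (-0.24 on the log2 scale), and across the 1512 shortest 0.19 above. The other untreated libraries had medians between 0.06 and 0.11 for the longest and between -0.09 and -0.02 for the shortest. The part of this length trend in the TET values was not tested. Without replicate 3 the log2FC was -0.61 for TET1 (adjusted p = 4.06e-06, edgeR), with no overlap between the groups. It was 0.74 for TET2 (adjusted p = 3.21e-08) and 0.18 for TET3 (adjusted p = 0.0437).

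Shares of TET RNA, which compare genes within a library, put replicate 3 with the others. Per kilobase, TET1 made up 21.9%, 25.2%, 23.3% and 22.9% of the summed TET reads untreated and 13.9%, 14.3%, 12.6% and 13.1% with DOX. TET2 made up 18.7%, 21.2%, 18.6% and 19.7%, and then 29.3%, 29.8%, 29.5% and 28.8%. Neither share overlapped between the groups (exact permutation test, p = 0.029 for each). TET1 was thus above TET2 in each untreated library and below it in each DOX-treated one. That order rests on the lengths used: with the longest transcript as length, the mean shares were 20% for TET1 and 27.2% for TET2 untreated, and 11% and 38.8% with DOX. The share of TET3 was 57.1% ± 2.47 untreated and 57.1% ± 1.01 with DOX (SD, n = 4 each; exact permutation test, p = 1).

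**Figure D3:**
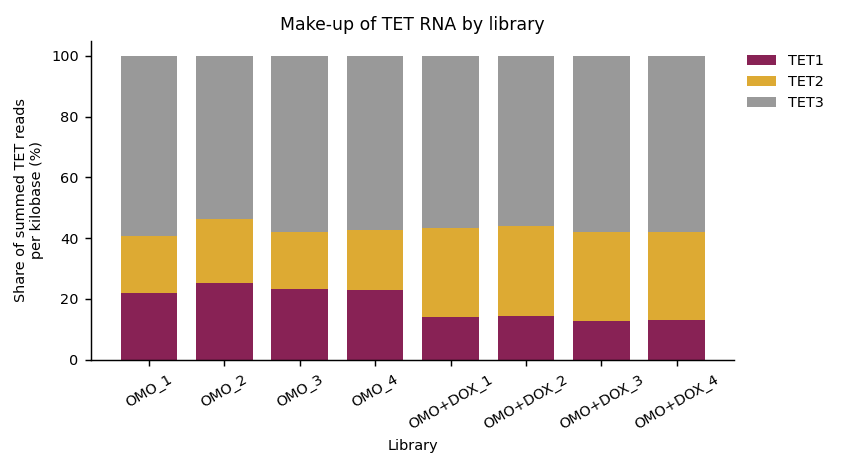
Share of each TET gene (vertical axis, percent) in the summed TET reads per kilobase of annotated exon, for each of the 8 libraries on the horizontal axis. TET1 takes 21.9% to 25.2% in untreated and 12.6% to 14.3% in DOX-treated libraries, TET2 18.6% to 21.2% and 28.8% to 29.8%.

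TDG (ENSG00000139372.15, chromosome 12, 103965804 to 103988874, plus strand), the glycosylase that follows the TET enzymes, had 113, 118, 106 and 114 CPM untreated and 97.9, 102, 94.8 and 95.6 CPM with DOX. MBD2 (ENSG00000134046.12, chromosome 18, 54151601 to 54224788, minus strand), the methyl-CpG reader, had 44.7, 44.8, 44.3 and 45.4 CPM untreated and 38.2, 40.6, 39.4 and 41.1 CPM with DOX. Both fell slightly without overlap between the groups, at a log2FC of -0.21 (SE 0.05, adjusted p = 0.00164, edgeR) for TDG and -0.17 (SE 0.04, adjusted p = 0.00294, edgeR) for MBD2. With normalization to library size only, neither passed: TDG was at -0.08 (adjusted p = 0.154) and MBD2 at -0.04 (adjusted p = 0.352). Counts of TDG were not whole in any library. Its processed pseudogene TDGP1 held between 2.05 and 9.34 counts.

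Compared as RPKM, here the CPM per kilobase of all annotated exons, the order of the 10 genes changed with DOX. In untreated cells DNMT1 led at 32.9 ± 0.924, followed by UHRF1 at 23 ± 0.772 and TDG at 23 ± 1.04 (SD, n = 4), which did not differ beyond their spread. DNMT3A at 9.71 ± 0.333, TET3 at 8.6 ± 1.83 and MBD2 at 7.71 ± 0.0818 came next, with TET3 overlapping both neighbours. UHRF2 at 4.28 ± 0.195, DNMT3B at 3.83 ± 0.164, TET1 at 3.49 ± 0.638 and TET2 at 2.94 ± 0.609 closed the order, and each overlapped the next. With DOX, TDG led at 19.9 ± 0.633, then DNMT1 at 13.9 ± 0.591, TET3 at 10.6 ± 0.575, DNMT3A at 8.27 ± 0.221, MBD2 at 6.86 ± 0.228 and TET2 at 5.45 ± 0.428, without overlap between neighbours. UHRF1 at 4.37 ± 0.332 and UHRF2 at 4.35 ± 0.174 were then level, as were DNMT3B at 2.67 ± 0.0994 and TET1 at 2.51 ± 0.303. Among the genes tested that had an annotated length, UHRF1 went from the 88.9th to the 48.5th percentile by this level. DNMT1 went from the 92.7th to the 81st and TET2 from the 39.1st to the 54.9th. This order depends on the lengths. With each gene's longest transcript in place of all annotated exons, UHRF2 moved most, to 11.4 untreated and 11.6 with DOX. In untreated cells TDG at 34.7 then stood above UHRF1 at 27.5, and DNMT1 was at 59.6. With DOX, TET2 at 8.83 then stood above MBD2 at 7.68.

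Partners of maintenance methylation moved largely as DNMT1 and UHRF1 did. Of 8 listed genes 7 were tested, of which 5 fell, 1 rose and 1 did not pass, with a median log2FC of -1.12 against 0.01 for all genes. Among all genes tested 38.1% fell and 38.5% rose at the same threshold, an adjusted p under 0.05 (edgeR). PCLAF, a PCNA-associated factor, went from 75 ± 5.53 to 13.6 ± 0.863 CPM (SD, n = 4 each; log2FC -2.47, SE 0.07, adjusted p = 3.14e-11, edgeR). CDCA7, which with the remodeller HELLS opens nucleosomal DNA for methylation, went from 96.7 ± 2.37 to 26 ± 0.904 CPM (log2FC -1.89, SE 0.04, adjusted p = 1.03e-11, edgeR). HELLS, named after its value was seen, had a log2FC of -1.12 (SE 0.06, adjusted p = 7.48e-09, edgeR). The deubiquitinase USP7, which stabilises UHRF1 and DNMT1, rose by 0.35 on the log2 scale (SE 0.05).

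Genes of an S-phase list, which also holds the proliferation genes MKI67 and TOP2A, fell beside these partners. All 16 listed genes, PCNA of the previous list among them, were lower with DOX (adjusted p under 0.05, edgeR), 15 of them at least 2-fold, with a median log2FC of -1.76 and a range from -2.66 for RRM2 to -0.88 for PCNA. Their summed CPM went from 3130 to 3480 in untreated to 1080 to 1180 in DOX-treated libraries. DNMT1 at -1.24 and UHRF1 at -2.4 lay within that range, and DNMT3A and DNMT3B lay outside it. RRM2, a subunit of ribonucleotide reductase, and the licensing factor CDT1 (log2FC -2.64, SE 0.08) fell most. E2F1, named after its value was seen, went from 54.5 ± 4.8 to 14.9 ± 1.25 CPM (SD, n = 4 each; log2FC -1.87, SE 0.08, adjusted p = 1e-09, edgeR). The part of fewer cycling cells in the fall of DNMT1 and UHRF1 was not tested.

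**Figure D4:**
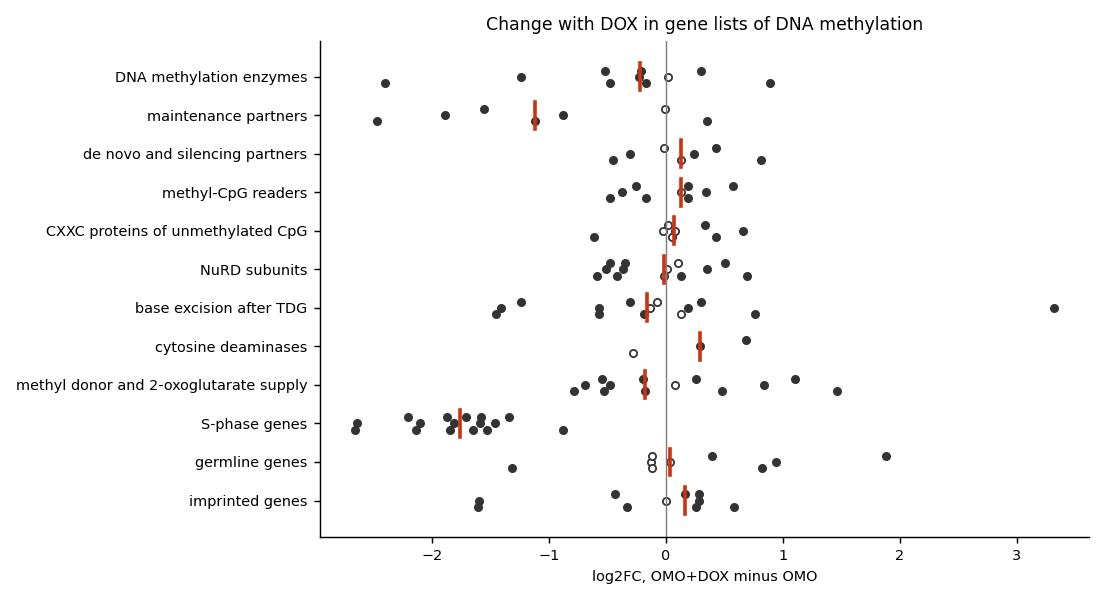
Log2FC, OMO+DOX minus OMO (horizontal axis), of each tested gene of the 10 described here and of 11 gene lists. Filled points have an adjusted p under 0.05 (edgeR), open points do not, and red bars are list medians; IGF2, with at most 1 count in untreated libraries, is not drawn. The genes of the S-phase list all lie below 0 (median -1.76) and the maintenance partners mostly do (median -1.12). The other lists have medians between -0.18 and 0.29.

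Genes of base excision repair, listed with other glycosylases and the GADD45 genes, moved in both directions. Of 14 tested, 7 fell and 4 rose, beside 38.1% and 38.5% of all genes tested, with a median log2FC of -0.17. GADD45A, a stress-induced protein reported to link TET and TDG to target genes, rose from 23.3 ± 1.59 to 232 ± 4.46 CPM (SD, n = 4 each; log2FC 3.32, SE 0.06, adjusted p = 7.2e-13, edgeR), and GADD45B rose by 0.76 (SE 0.11). XRCC1, the scaffold of base excision and single-strand break repair, went from 91.4 ± 9.37 to 33.5 ± 1.17 CPM (log2FC -1.45, SE 0.07), and the glycosylase NEIL3 had a log2FC of -1.41 (SE 0.08). Of 9 cytosine deaminases 3 were tested and 2 rose, APOBEC3F (log2FC 0.68, SE 0.07) and APOBEC3C (0.29, SE 0.09).

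The enzymes that supply the methyl donor and the TET cosubstrate 2-oxoglutarate were split. Of 13 tested, 7 fell and 5 rose, beside 38.1% and 38.5% of all genes tested, with a median log2FC of -0.18. IDH3A, of mitochondrial isocitrate dehydrogenase, rose from 26.7 ± 1.31 to 73.7 ± 1.71 CPM (SD, n = 4 each; log2FC 1.46, SE 0.05), and OGDH, which consumes 2-oxoglutarate, had a log2FC of 1.1 (SE 0.06). The cytosolic IDH1, which makes 2-oxoglutarate, had one of -0.69 (SE 0.06). OGT, the glycosyltransferase that binds TET proteins, went from 1120 ± 156 to 648 ± 49.5 CPM (log2FC -0.79, SE 0.1), with 886 CPM in untreated replicate 3 against 1180 to 1230 CPM in the others.

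Genes of the reader families and repressor subunits changed less. For the counts of this paragraph, the shares over all genes tested were 38.5% higher and 38.1% lower. Of 9 other genes of the MBD and ZBTB families 4 rose and 4 fell. They were listed by family, and their binding of methylated CpG was not examined. The changes ran from -0.48 (SE 0.07) for MBD3 and -0.38 (SE 0.05) for MBD4 to 0.57 (SE 0.09) for MBD5. Of 13 NuRD subunits, MBD3 among them, 6 fell and 4 rose, from -0.59 (SE 0.05) for RBBP7 and -0.51 (SE 0.05) for MTA1 to 0.5 (SE 0.04) for CHD3 and 0.69 (SE 0.06) for GATAD2B. Among 8 proteins with a CXXC domain or an equivalent for unmethylated CpG, 3 rose and 1 fell, with FBXL19 at 0.66 (SE 0.06), CXXC4, the neighbour of TET2, at 0.43 (SE 0.06), and CXXC5 at -0.62 (SE 0.05). Partners of de novo methylation and silencing gave 3 rises and 2 falls among 7 tested, with the demethylase KDM1B at 0.81 (SE 0.06), SETDB1 at 0.43 (SE 0.04), TRIM28 at -0.45 (SE 0.07) and QSER1, which guards bivalent promoters, at -0.31 (SE 0.11). The groups overlapped for QSER1. It had 112 CPM in untreated replicate 3, against 156 to 159 CPM in the others and 108 to 128 CPM with DOX. DNMT3L, the cofactor of the de novo enzymes, was not tested and had at most 11 counts in any library.

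Genes whose silence or allele-specific expression is known to rest on DNA methylation moved in both directions. The median log2FC was 0.03 for the germline and 0.16 for the imprinted genes tested, against 0.01 for all genes. At an adjusted p under 0.05 (edgeR), 38.5% of all genes tested rose and 38.1% fell. DNA methylation was not measured. Of 25 germline genes 9 were tested, of which 4 rose and 1 fell, and 7 had no count in any library. Not all of the tested genes were silent without DOX. Named after their values were seen, MAGEA3 stood at 108, MAGEA6 at 73.4 and BRDT at 20.7 CPM in untreated cells. BRDT was among the rises, and MAGEA3 and MAGEA6 did not pass the test. TEX15 rose from 2.11 ± 0.341 to 7.75 ± 0.622 CPM (SD, n = 4 each; log2FC 1.88, SE 0.12) and TEX14 had a log2FC of 0.94 (SE 0.12), while MAEL, a factor of the piRNA pathway, had one of -1.32 (SE 0.14). Of 18 imprinted genes 11 were tested, of which 6 rose and 4 fell. NNAT went from 531 ± 72.1 to 174 ± 17.9 CPM (log2FC -1.61, SE 0.1) and PEG3 from 215 ± 53.5 to 70.6 ± 6.38 CPM (log2FC -1.6, SE 0.16), with 135 CPM in untreated replicate 3 against 234 to 245 CPM in the others. KCNQ1OT1, an antisense RNA for which the strand setting of the counting matters, had a log2FC of 0.58 (SE 0.15). Its level was 1.83 CPM in untreated replicate 3 against 3.08 to 3.23 CPM in the others. IGF2 had at most 1 count in any untreated library and between 42.7 and 61.5 counts with DOX, 1.15 ± 0.108 CPM (SD, n = 4).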

How the data were processed

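PolyA+ libraries of untreated and DOX-treated D283-OMO cells, 4 independent biological replicates each, were made with a stranded kit and sequenced as pairs. The authors used Trim Galore for trimming and STAR for alignment (GRCh38, GENCODE 32), and deposited RSEM expected counts per gene, not normalized; whether counting used the strand, and tool versions, are not given in the sources used here. RSEM divides reads that match several genes, so near-identical copies share counts.

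Expected counts were rounded. Genes above 1 CPM in at least 4 of 8 libraries were tested with edgeR 4.0.16 in R 4.3.3 (TMM, quasi-likelihood test, no covariates, Benjamini-Hochberg adjustment over all genes tested). The SE is the absolute log2FC over the square root of F. Names, coordinates and merged exon lengths come from GENCODE 29 (99.3% of tested identifiers), also on GRCh38. Ratios were tested by exact two-sided permutation over 70 divisions (scipy 1.17.1). Length trends used log2(CPM + 0.1). Models were tested on simulated data.

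The genes, lists and tests were chosen with earlier results of these data known. Named from each list were the 2 largest rises and 2 largest falls at an adjusted p below 0.05. A gene this rule names is not reported here. Alternatives were DESeq2 size factors, library size only, DESeq2 1.42.0, other filters, a replicate block, each library left out, and longest transcripts as lengths. Other steps used Python 3.11.15.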

Additional observations from a re-analysis of the deposited data

Results flagged for a closer look

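Values of a single library far from the other 3 of its group were looked for in 32 groups of 4 values, by the gap to the nearest library over the whole range against Dixon's 95% critical value. It marked 3 groups, and chance marks about 1 in 20. All 3 are in untreated replicate 3: DNMT3A at 111 CPM (gap 0.929 of the range), TET1 at 23.6 CPM (0.908) and TET2 at 33.5 CPM (0.874). TET3, at 77.8 CPM the lowest untreated value too, was not marked, since untreated replicate 2 at 98.3 CPM lay near it. The ratios of DNMT3A to DNMT3B and the TET shares were not marked in this library. The cause was not tested.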

How the results depend on the processing

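The counts of genes called at an adjusted p below 0.05 (9), at least 2-fold (2), at an FDR under 0.001 with a log2FC beyond 2 (1) and without overlap (7) stayed within 1.5 times under every alternative tried; with a library left out they ran from 8 to 9, 2 to 2, 1 to 1 and 7 to 8. Over 14 alternatives for each of the 10 genes, 131 values kept their side of the threshold, 8 lost the call and 1 gained it. No called value changed direction; UHRF2, not called, lay between -0.01 and 0.15, below 0 without untreated replicate 3 and with no filter on low counts. DNMT1 (-1.27 to -1.12), UHRF1 (-2.43 to -2.27), DNMT3B (-0.56 to -0.39), TET1 (-0.61 to -0.36) and TET2 (0.74 to 1.01) kept theirs throughout. The calls that changed are those of TET3 with a library left out and of DNMT3A, TDG, MBD2 and UHRF2 with library size only, given above. Relative to TMM, library size only raised the median log2FC of all genes from 0.01 to 0.14. Of the list counts, 47 of 48 stayed within 1.5 times; the falls among de novo and silencing partners went from 2 to 1 with library size only. Levels per kilobase moved by more than the replicate SD in 17 of 20 cases with longest transcripts as lengths, while 53 of 54 ratio changes moved by less; the TET3 share became -0.07 on the log2 scale.

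With the replicate number as a replicate block, 9 of the 10 genes were called, as without it, and no call changed. Deviations of same-numbered libraries from their group means correlated at 0.157, 0.144, 0.241 and -0.176, and 1 of 4 untreated libraries correlated best with its own number, so the numbers were not taken as pairs.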
